A study of Homo sapiens with 3 samples.

Results

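Peaks of RNA crosslinked to HA-tagged HNRNPA0 were collected here where they lay at the 5' ends of protein-coding genes. A 5' end peak was a distinct interval and strand on chromosomes 1 to 22 or X whose centre lay in the first 1000 bp of the RefSeq interval of a protein-coding gene of 5 kb or more, on the gene's strand and under its gene ID. The HNRNPA0 gene was left out because the cells carried a vector for it. The 3 lists together held 1123 such intervals of 48711 distinct intervals on these chromosomes. Replicates 1, 2 and 3 held 353, 408 and 365 of them, out of 15601, 15426 and 17727 distinct peaks.

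The samples were 3 replicates of 1 group of HEK293T cells, a human embryonic kidney line carrying the SV40 large T antigen, with the genotype given as WT. They were transfected with 750 ng of the HA-HNRNPA0 vector on a 15 cm plate and crosslinked the next day at 254 nm with 0.3 J/cm2. In easyCLIP, RNA bonded to a protein by ultraviolet light is pulled down with it, trimmed and sequenced. Here about 2 mg of lysate per replicate met 22 uL of anti-HA beads and was treated for about 3 min with RNase I (0.02 U/uL), and barcoded replicates were pooled after the first adapter ligation. The libraries were sequenced as pairs of 150 bp to about 30 M reads each. The protein was tagged and made from a vector, so its level need not be that of the cell's own HNRNPA0. No source used here says that the replicates were separate cultures, so p-values measure a spread that may be technical. No control library was used here, so values carry no background measured the same way.

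HNRNPA0 belongs to the hnRNP A/B family, proteins with RNA recognition motifs that bind nuclear pre-mRNA and mature transcripts. The first bases of a gene give the capped end of the transcript, the 5' untranslated region, the first exon and often the head of the first intron. Small RNA genes can lie within or beside the same stretch: many small nucleolar RNAs are cut from introns of host genes, and transfer RNA genes have their own promoters. Exon coordinates were not used here, so peaks were placed by distance from the gene start and not by exon or intron. HEK293T cells have no marker list that peak lists can test, because a peak needs both RNA and crosslinking.

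Letters are shown for some of the recurring regions that RefSeq's table of starts (GRCh38.p14) reached, since they let the RNA at the start be seen. A region is a set of overlapping peaks on 1 strand. The 6 regions shown first had a peak in all 3 replicates and no small RNA gene. Each held 10 or more of bases 21 to 50 after a listed start of its gene. Regions that met fewer of these bases are not shown. Bases 21 to 50 after the start are given 5' to 3' on the gene's strand, with the bases inside the region in capitals.
SRSF3 (chr6:36594382-36594411, plus strand): GGTGAGTGAGAGAGTTGGTTGGTGTTGGGC
RACK1 (chr5:181243857-181243886, minus strand): GCGGCAGGAGAGGTTGTGGTGCTAGTTTCT
TMED7 (chr5:115625987-115626016, minus strand): tcaggccttttccgcttctcTTTTACCTCC
CSTF3 (chr11:33161431-33161460, minus strand): GTGGCGATTGGTGTTGGCGGTCTGGCTCAG
SNRPB (chr20:2470740-2470769, minus strand): GGGAAATCGGCTGTGGGAGAGAGGCTAGGC
GTF3C1 (chr16:27549864-27549893, minus strand): gcaatggacGCGCTGGAGTCGTTGTTGGAC

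Guanine made up 16 of the 30 bases shown for SRSF3, 15 for SNRPB, 14 for CSTF3, 13 for RACK1 and 12 for GTF3C1, but 3 for TMED7. The TMED7 bases held 25 pyrimidines of 30. The motifs GGG, TAG and ATTT were searched on the gene's strand. GGG stood in 2 of the 6, TAG in 2 and ATTT in 0. Over bases 21 to 50 of 13398 genes of the class, counted from their most upstream listed start, the shares were 50.7%, 15.8% and 4.02%. The same 30 bases were searched in 10 start windows where a region of 2 replicates held 8 or more of them. There GGG stood in 5, TAG in 3 and ATTT in 0.

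For DDX5, an RNA helicase, the table covered the short stretch that the authors marked inside the peak. The region with a peak in all 3 replicates began well inside the gene interval but close to a later listed start. Bases 768 to 797 after the start of the gene interval are given, with the marked stretch in capitals.
DDX5 (chr17:64506070-64506099, minus strand): ccgagaccgcggcCGGGaccgagggtgagt
The highest read number of the DDX5 region, the last number of the authors' peak name, was 7 in replicate 1, 8 in replicate 2 and 6 in replicate 3. Most 5' end peaks lay beyond the letters of the table: the marked stretch with 13 bases on each side was covered for 35 of 1126 peaks, summed over the lists (3.11%). The planned comparison of guanine and GC content inside the peaks was void for that reason.

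Whole start windows could be compared by gene, since 610 of 728 genes with a 5' end peak (83.8%) had one. In the first 50 bases after the most upstream listed start, G and C made up 65.4% on average in those 610 genes and 64.3% in 13398 genes of the class. In 3958 genes with peaks further on but none at the 5' end, G and C made up 66.7%. TAG stood in 30.0% of the 50-base stretches of genes with a 5' end peak, in 26.2% of all and in 25.7% of genes with peaks further on. GGG stood in 66.4%, 64.3% and 67.0% of them. Neither the G and C share nor GGG thus set the genes with a 5' end peak far from the rest. ATTT stood in 10.5% of stretches of genes with a 5' end peak, 7.96% of all and 6.42% of genes with peaks further on. Thymine made up 19.6% of bases in genes with a 5' end peak and 17.4% in those with peaks further on. The mean of all genes of the class lay between these values. The differences in motifs and bases were not tested.

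Over the whole gene class the first kilobase held more peaks than the next. The first 1000 bp held 2.54% ± 0.319 (SD, n = 3) of the peaks in the gene class, with 2.46%, 2.89% and 2.26% in replicates 1, 2 and 3. The next 1000 bp held 218, 217 and 250 peaks, the lowest mean (228) among the windows of 1000 bp in the first 5 kb. The first kilobase thus had 1.62, 1.88 and 1.46 times the count of the second in replicates 1, 2 and 3, or 1.65 ± 0.212 (SD, n = 3), and it was higher in 3 of 3. The two-sided exact permutation test over the 3 pairs gave p = 0.25, the smallest p that 3 pairs allow, so no comparison between peak sets here can pass 0.05. At the main settings 14 such paired comparisons were made, 7 reached that smallest p, and the lowest Benjamini-Hochberg adjusted p over the 14 was 0.5. Repeats of these tests under other settings, given below, are outside this count and were not adjusted.

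The mean ratio of the first to the second kilobase was higher in longer genes, but not in every replicate. In genes of 10 kb or more it was 2.14, 2.44 and 1.74 in replicates 1, 2 and 3, or 2.11 ± 0.353, and in genes of 50 kb or more it was 2.72 ± 1.05 (SD, n = 3). In genes of 50 kb or more the first kilobase held 114, 126 and 111 peaks in replicates 1, 2 and 3, and the second held 40, 34 and 69. Every replicate's first kilobase was above every value of the 4 windows that followed in these genes. The ratio in genes of 50 kb or more was 2.85, 3.71 and 1.61 in replicates 1, 2 and 3, so replicate 3 was lower there than in genes of 10 kb or more. These gene sets are nested, and the differences between the ratios were not tested. Genes of 5 to 10 kb went the other way. Their first kilobase held 66, 78 and 57 peaks in replicates 1, 2 and 3, fewer than their second in every replicate.

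**Figure D1:**
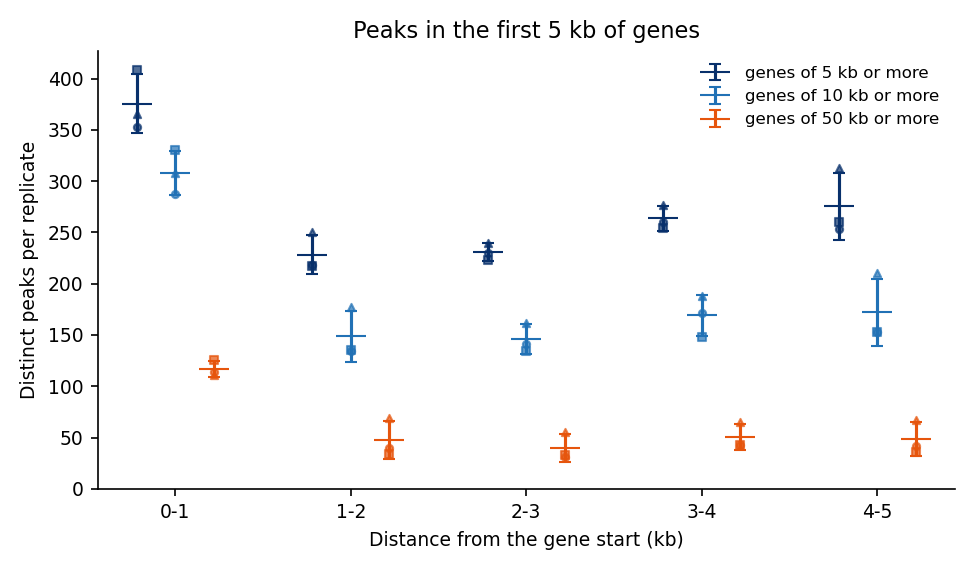
Distinct peaks per replicate (vertical axis) in 1-kb windows from the gene start (horizontal axis), for genes of 5, 10 and 50 kb or more. Horizontal marks are means, bars are SD and points are the 3 replicates. In genes of 5 kb or more the 353 to 408 peaks of the first kilobase lie above the 217 to 250 of the second.

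Within the first kilobase the peak centres gathered near the start. Distances are of centres, so a peak that begins at the first base is centred further in. The median distance of the centre from the start was 246, 282.5 and 281.5 bp in replicates 1, 2 and 3, or 270 ± 20.8 bp (SD, n = 3). The stretch from 100 to 200 bp was the fullest in every replicate, with 80, 106 and 98 peaks. The first 100 bp held 67, 61 and 48, and the stretch from 200 to 300 bp held 50, 47 and 44. From 500 bp on, each 100 bp held between 15 and 27 peaks in any replicate. In all, 40.9% ± 0.824 of the peaks were centred in the first 200 bp and 69.8% ± 0.497 in the first 500 bp (SD, n = 3).

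**Figure D2:**
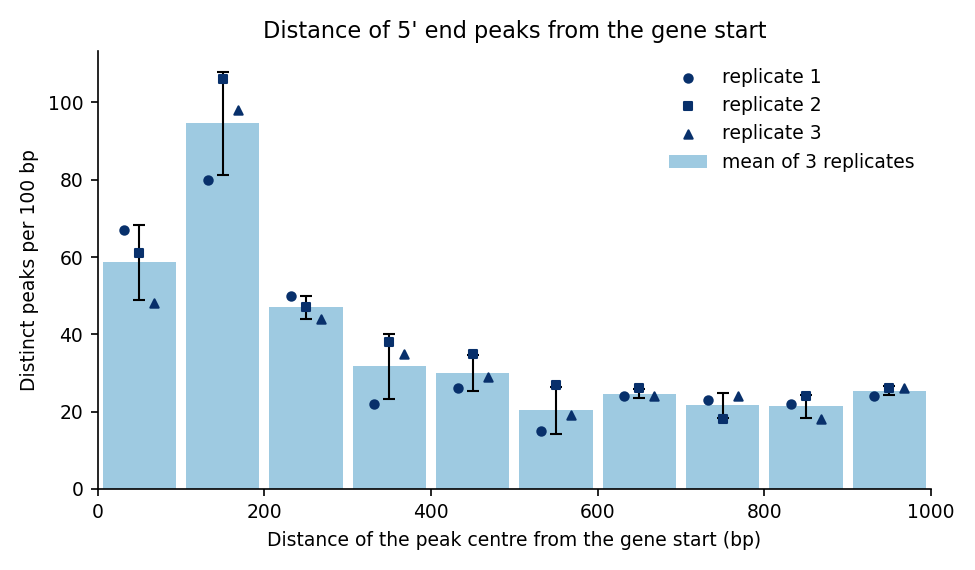
Distinct 5' end peaks per 100 bp (vertical axis) by distance of the peak centre from the gene start in bp (horizontal axis). Bars are means, error bars are SD and points are the 3 replicates; the stretch from 100 to 200 bp is fullest with 80 to 106 peaks.

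The start used for these distances is the outer end of the gene interval, and 148 of the 610 genes with a start window had over 1 listed start. For 936 peaks of these 610 genes, summed over the lists, 914 had a listed start of their gene at or before the centre. The median distance to the nearest such start was 219, 230 and 213 bp in replicates 1, 2 and 3. The remaining 22 peaks were centred before the first listed start, among them the peaks of WDR74 and AGBL5 described below. Of the 22, 68.2% lay in a region of all 3 replicates. The WDR74 and AGBL5 regions held 10 and 5 peaks, with overlapping peaks each counted, so this share rests largely on them. Only 1 peak per replicate carried the ID of a gene of the class while centred in the 1000 bp before it, each with a read number of at most 3. An ID was tied to a gene only if 90% or more of its peak centres lay inside. That rule limits such peaks in advance, so their number does not show where peaks lie. Another protein-coding gene on the same strand covered the centre of 8 of the 1126 peaks (0.71%). The strand of the gene came from the gene ID rather than the start table for 190 of the 1126.

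Most 5' end peaks rested on few reads. Their median read number was 4 in every replicate, equal to that of other peaks of the gene class. Peaks with just 3 reads, the fewest that any list holds, made up 43.6%, 48.0% and 42.2% of 5' end peaks in replicates 1, 2 and 3. A read number of 5 or more was held by 36.3%, 32.1% and 37.8%, against 37.8%, 37.6% and 34.7% of other peaks. The difference was -1.30 ± 4.28 percentage points (SD, n = 3), with 5' end peaks higher in 1 of 3 replicates (two-sided exact permutation p = 0.75). It turned the other way with each gene counted once (5.91 points) and without replicate 2 (0.787). Median width was 59, 59 and 58 nt, against 63, 62 and 64 nt for other peaks.

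Most places at the 5' end were seen once. The peaks formed 884 regions, of which 724 had a peak in 1 replicate, 115 in 2 and 45 in all 3. The 45 are 5.09% of the regions. Over all 35227 regions of the gene class, 5.84% had a peak in all 3 replicates, so the 5' end share lay near this background. By peaks, 14.2%, 13.2% and 15.1% of 5' end peaks in replicates 1, 2 and 3 lay in a region of all 3 replicates. The corresponding shares of other peaks were 15.9%, 15.97% and 13.9%. The difference was -1.08 ± 2.02 points (SD, n = 3), higher at the 5' end in 1 of 3 replicates (two-sided exact permutation p = 0.5). It turned positive with each gene counted once (0.916 points), in the first 2000 bp (0.859), without replicate 1 (0.813) and without replicate 2 (1.72). It lay farther below 0, at -4.46 points in the first 500 bp, -4.38 in genes of 10 kb or more, -4.80 in the 50% of each list with the lower p-values, -5.20 at 5 reads or more and -4.63 without peaks over small RNA genes. In each of these 5 the two-sided exact permutation p was 0.25, with the 5' end lower in 3 of 3 replicates. Without replicate 3 it was -3.37 points.

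Recurrence followed the read number in both sets. Of 5' end peaks with a read number of 3, 5.77% ± 0.663 lay in a region of all 3 replicates, against 3.36% ± 0.37 of other peaks (SD, n = 3), and the 5' end was higher in 3 of 3 replicates (two-sided exact permutation p = 0.25). With a read number of 5 to 9 the shares were 17.5% ± 4.64 and 21.3% ± 0.337, with the 5' end lower in every replicate (p = 0.25, exact). With 10 to 19 they were 53.7% ± 14.2 and 56.3% ± 0.826, and with 20 or more 87.96% ± 12.5 and 89.0% ± 1.51. The class of 20 or more held 8, 9 and 8 peaks at the 5' end in replicates 1, 2 and 3, so single peaks moved its share widely.

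**Figure D3:**
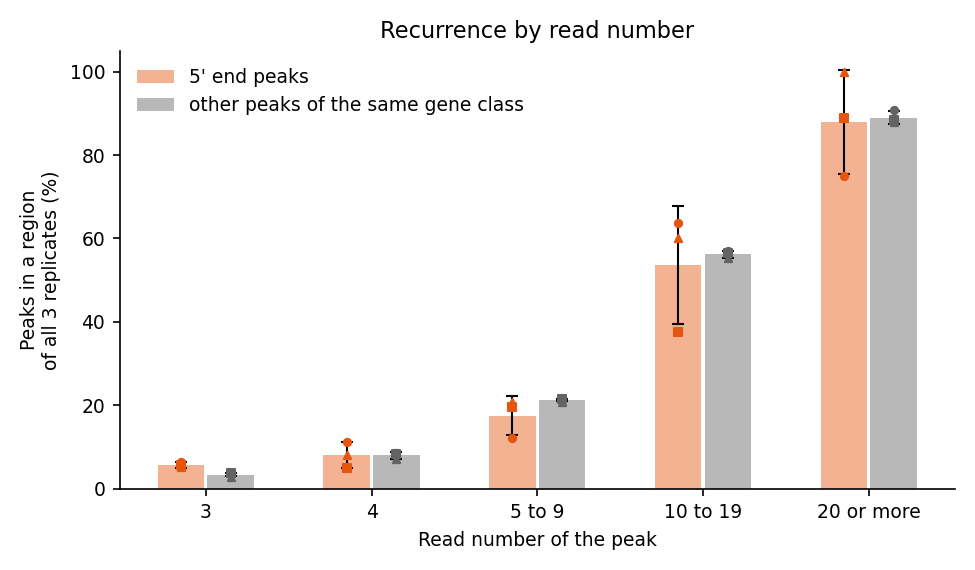
Percentage of peaks in a region found in all 3 replicates (vertical axis) by read number of the peak (horizontal axis), for 5' end peaks and other peaks of the same gene class. Bars are means, error bars are SD and points are the 3 replicates; the mean share climbs from 5.77% to 87.96% at the 5' end and from 3.36% to 89.0% elsewhere.

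Recurrence also differed by the length of the gene. In genes of 5 to 10 kb, 33.4% ± 6.05 of 5' end peaks lay in a region of all 3 replicates, close to the 32.4% ± 1.62 of other peaks in such genes. In genes of 10 to 50 kb the shares were 10.7% ± 0.775 at the 5' end and 19.6% ± 0.674 elsewhere (SD, n = 3). That difference was -8.90 ± 0.895 points, lower at the 5' end in all 3 replicates (two-sided exact permutation p = 0.25, the smallest possible). In genes of 50 kb or more the shares were 9.17% ± 1.48 and 10.98% ± 1.19. Without peaks over small RNA genes the means were lower at the 5' end in all these length classes. They were 25.2% ± 5.85 and 31.2% ± 1.17 elsewhere in genes of 5 to 10 kb, so the closeness there rested on such peaks. In genes of 10 to 50 kb they were 8.83% ± 0.287 and 19.3% ± 0.681. In genes of 50 kb or more they were 5.95% ± 1.35 and 10.9% ± 1.20 (SD, n = 3). RNA levels were not used here, and whether short genes with recurring peaks were also the more abundant ones was not tested.

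The far part of the first kilobase had the highest recurrence. Between 600 and 1000 bp, 24.7%, 23.4% and 26.1% of the peaks in replicates 1, 2 and 3 lay in a region of all 3 replicates. In the first 200 bp the shares were 10.2%, 11.4% and 13.01%, below every one of the former, a difference that was not tested. From 200 to 600 bp they were 10.6%, 8.84% and 9.45%, so recurrence did not climb step by step with distance. The far stretch held 19 of the 45 regions of all 3 replicates, and the first 200 bp held 15. Genes of 5 to 10 kb gave 88 of the 279 peaks from 600 to 1000 bp and 59 of the 460 in the first 200 bp, summed over the lists. In them the shares of these 2 stretches were close, 38.2% ± 8.71 and 35.3% ± 5.38, and replicate 2 had the reverse order (35.5% and 36.4%). In genes of 10 kb or more the shares were 18.9% ± 2.11 from 600 to 1000 bp, 7.50% ± 0.287 from 200 to 600 bp and 8.003% ± 0.632 in the first 200 bp. Without peaks over small RNA genes they were 12.7% ± 0.764, 5.52% ± 0.602 and 7.35% ± 0.623 (SD, n = 3).

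Small RNA genes lay under the strongest 5' end peaks. RefSeq genes of transfer RNAs, small nuclear, small nucleolar, small Cajal body and micro RNAs, all of 500 bp or less, were overlapped by 18, 21 and 21 of the 5' end peaks in replicates 1, 2 and 3. This was 5.33% ± 0.365 of 5' end peaks and 0.646% ± 0.0714 of other peaks (SD, n = 3). The difference of 4.69 ± 0.399 points held in 3 of 3 replicates (two-sided exact permutation p = 0.25). These peaks took 22.3%, 22.6% and 21.2% of the summed read numbers of 5' end peaks, against 1.03%, 1.23% and 1.16% for other peaks. Sums of read numbers here count every peak, so reads under overlapping peaks of 1 list can be counted more than once. In replicate 1, for instance, overlapping peaks of WDR74 entered with 74, 70 and 63. Of the 25 5' end peaks that reached 20 reads or above, 17 overlapped a small RNA gene, while 39 of 1130 other peaks as strong did. The 17 came from WDR74, AGBL5, TRIM55 and LUC7L2 alone, with overlapping peaks and each replicate counted separately. The reference tables give no strand for transfer RNA and small nucleolar RNA genes, so overlap was taken on either strand.

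By region, 18 of the 884 overlapped a small RNA gene, and 10 of these 18 had a peak in all 3 replicates. They were 6 of the 10 strongest of the 45, and 4 of the 5 strongest. The 5 strongest regions together took 18.7% ± 0.619 of the summed read numbers at the 5' end (SD, n = 3), with overlapping peaks of a region each counted. The other 35 regions of all 3 replicates had no small RNA gene under them.

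**Figure D4:**
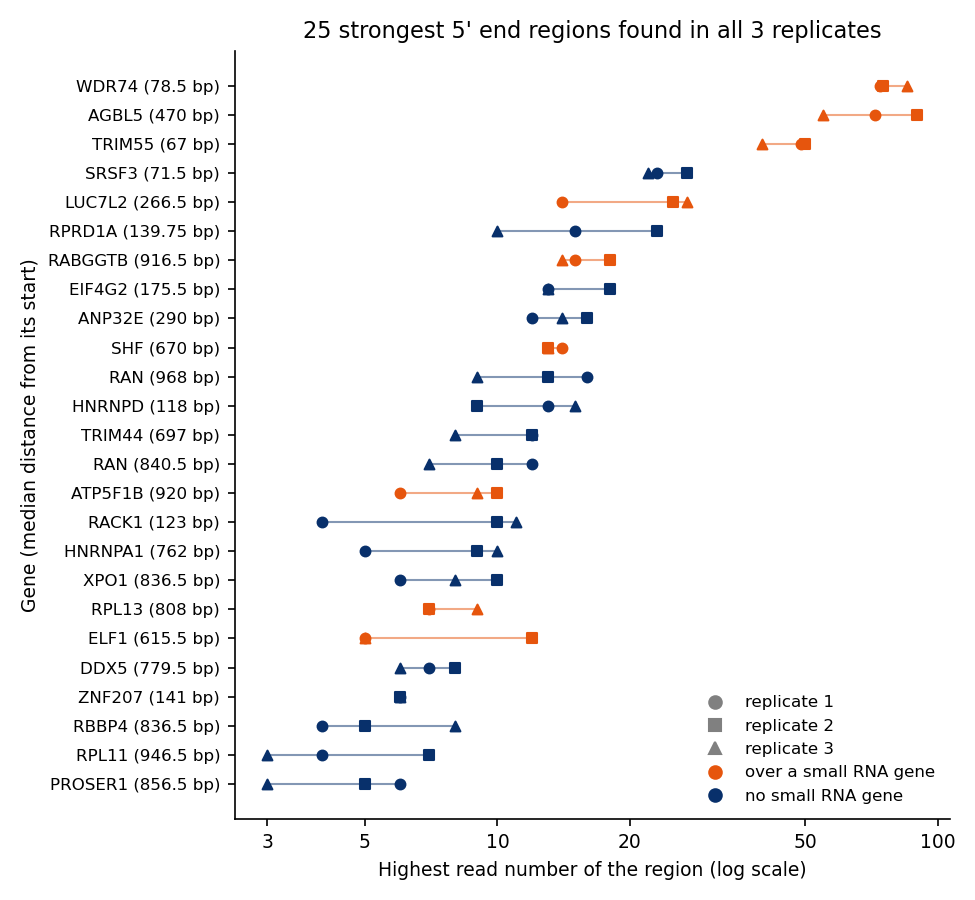
Highest read number in each replicate (horizontal axis, log scale) of the 25 strongest 5' end regions found in all 3 replicates, with the gene and the median distance from its start (vertical axis). Orange regions overlap a small RNA gene and blue ones do not; WDR74, AGBL5 and TRIM55, all orange, lie at 40 or above in every replicate.

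The strongest region, placed in WDR74, a gene of ribosome assembly, had highest read numbers of 74, 75 and 85 in replicates 1, 2 and 3. It spanned chr11:62841643-62841788 and lay inside RNU2-2, a gene of the U2 small nuclear RNA of the spliceosome, of which it covered 76.4%. All 10 WDR74 peaks of the 3 lists lay in this region. The AGBL5 region, in a gene of an enzyme that trims glutamate from tubulin, had 72, 90 and 55 and covered the whole of TRY-GTA2-1, a tyrosine transfer RNA gene. Replicate 3 was the lowest there and replicate 2 the highest. The TRIM55 region, in a gene of a muscle ubiquitin ligase, had 49, 50 and 40 over TRY-GTA5-1, another tyrosine transfer RNA gene. TRIM55 and AGBL5 also had no peaks outside their 5' end. All peaks of WDR74 and TRIM55 met the small RNA gene, as did 4 of the 5 AGBL5 peaks. The other AGBL5 peak, in replicate 3 with 49 reads, began 2 bp past the end of TRY-GTA2-1.

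Other transfer RNA genes lay under regions of LUC7L2, SHF and ELF1. The region of LUC7L2, a splicing factor tied to the U1 particle, covered TRR-CCT4-1 and had 14, 25 and 27 in replicates 1, 2 and 3, with replicate 1 low. The region of SHF, an adaptor with an SH2 domain, covered TRH-GTG1-8 and had 14, 13 and 13. The region of ELF1, an ETS transcription factor, covered TRE-TTC1-2 and had 5, 12 and 5.

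Small nucleolar RNA genes lay under regions farther from the start. RABGGTB, a subunit of the enzyme that puts lipid on Rab proteins, had 15, 18 and 14 over SNORD45C, 916.5 bp from the start. ATP5F1B, a subunit of the mitochondrial ATP synthase, had 6, 10 and 9 over SNORD59A at 920 bp. RPL13, a protein of the large ribosomal subunit, had 7, 7 and 9 over SNORD68 at 808 bp. SEC14L1 had 3, 3 and 4 over SCARNA16. The intervals of the first 3 covered the whole small nucleolar RNA gene, and that of SEC14L1 covered 53.5% of its small RNA gene. Regions over SNORA21 in RPL23 and over the MIR3652 gene in HSP90B1 were found in 2 replicates. The HSP90B1 region, with 10 and 6 in replicates 1 and 3, met 42 bp of the MIR3652 gene, at the end away from the mature microRNA listed there.

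Among regions with no small RNA gene, SRSF3 was the strongest. SRSF3, a splicing factor of the SR family, had 23, 27 and 22 in replicates 1, 2 and 3 at 71.5 bp from the start, and its letters, shown above, lay whole inside the region. The region was one of many in the gene: 3 of its 42 peaks lay at the 5' end, which took 5.81% ± 0.869 of its summed read numbers (SD, n = 3). Peaks elsewhere in SRSF3 reached 48, 47 and 48, above the 5' end in every replicate.

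RPRD1A, which binds the tail of RNA polymerase II, had 15, 23 and 10 at 139.75 bp. EIF4G2, a translation initiation factor for cap-independent start, had 13, 18 and 13 at 175.5 bp, while its peaks elsewhere reached 63, 60 and 79. ANP32E, a chaperone that removes the histone H2A.Z, had 12, 16 and 14 at 290 bp. HNRNPD, an hnRNP that binds AU-rich elements, had 13, 9 and 15 at 118 bp, with peaks elsewhere of up to 13, 11 and 14. The 5' end and the rest of HNRNPD thus overlapped in strength, unlike those of EIF4G2.

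RAN held the most 5' end regions found in 2 or more replicates. RAN, the GTPase that drives transport between nucleus and cytoplasm, had 11 5' end peaks in 5 regions, of which 4 were found in 2 or more replicates and 2 in all 3. The farther of the 2, at 968 bp, had 16, 13 and 9 in replicates 1, 2 and 3, counting peaks of the region on both sides of the 1000 bp limit. The nearer, at 840.5 bp, had 12, 10 and 7. The 5' end took 31.1%, 35.4% and 34.4% of the summed read numbers of RAN. XPO1, the exportin that carries cargo out with RAN, had 4 regions, 3 of them in 2 or more replicates, and its region of all 3 had 6, 10 and 8 at 836.5 bp. No other gene had 3 or more regions found in 2 or more replicates. TMED7, a cargo receptor of the early secretory pathway, was the only other gene with 2 regions of all 3, with 3, 3 and 7 in the nearer and 3, 4 and 3 in the farther.

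Other regions of all 3 replicates had means from 3 to 10.7. TRIM44 had 12, 12 and 8 at 697 bp. RACK1, a scaffold on the small ribosomal subunit, had 4, 10 and 11 at 123 bp, with replicate 1 low. HNRNPA1, the best known hnRNP A/B protein, had 5, 9 and 10 at 762 bp. ZNF207, a protein of spindle assembly, had 6 in each replicate at 141 bp. RBBP4, a histone-binding subunit of chromatin complexes, had 4, 5 and 8 at 836.5 bp. In 22 of the 45 regions the mean of the 3 highest read numbers was under 5, and CDKN2AIPNL had 3, the lowest value the lists hold, in every replicate.

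The nearest region of all 3 replicates to a start was that of SNRPB, a core protein of spliceosomal particles, at 56.75 bp, with 3, 5 and 4. The replicate 1 peak of the SNRPB region stood under another gene ID, so SNRPB itself counted in 2 replicates. TRIM55 at 67 bp, and CSTF3, SRSF3 and CDK2 at 71.5 bp, came next. CSTF3, a factor of mRNA 3' end cleavage, had 4, 3 and 5, and CDK2, a kinase of the cell cycle, had 5, 4 and 3. The farthest were RAN at 968 bp, RPL11 at 946.5 bp, RNF138 at 945.5 bp, ATP5F1B at 920 bp and RABGGTB at 916.5 bp. Just outside the 1000 bp limit lay RPS4X at 1065.5 bp, with 13, 5 and 16, and WDR26 at 1080.5 bp, with 5, 7 and 5. Just inside lay RPL11, with 4, 7 and 3, and RAN.

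Some strong regions were missing from 1 or 2 replicates. SERBP1, an mRNA-binding protein that sits on ribosomes, had 21 and 25 in replicates 1 and 2 at 366.75 bp and no peak in replicate 3. TUBB, a beta tubulin, had 25 and 16 in replicates 1 and 2 and none in replicate 3. SRSF1, another SR protein, had 18 and 14 in the same 2 replicates at 819.25 bp. PABPC1, the poly(A)-binding protein, had 17 in replicate 2 alone at 415 bp, and a second SERBP1 region and one of PTGES3 had 16 in replicate 2 alone. The median of the highest read number was 5 over the 115 regions of 2 replicates and 3 over the 724 of 1.

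By gene, 728 had a 5' end peak in any replicate, which is 4.36% of the 16708 protein-coding genes of 5 kb or more. Of these genes 547 had it in 1 replicate, 121 in 2 and 60 in all 3, and the 60 are 0.359% of the gene class. A peak anywhere on their strand was held by 5405 genes, of which the 728 are 13.5%. In 42 of the 60 genes a region with a peak in all 3 replicates was shared, and in 18 the replicates' 5' end peaks lay in different regions or in regions of fewer replicates. The 728 genes had a median length of 34570 bp, against 54030 bp for genes with peaks but none at the 5' end and 32445 bp for the class.

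The 5' end was seldom the strongest place of its gene. The counts set 1000 bp against the whole rest of the gene, and no other window of that size was compared. In 565 of the 728 genes a peak elsewhere had a higher read number, in 68 the highest values were tied, and in 39 the 5' end was higher. The remaining 56 had no other peak. Of the 60 genes with a 5' end peak in all 3 replicates, 43 had a stronger peak elsewhere, 5 were tied, 9 were higher at the 5' end and 3 had no other peak. Those 3 were WDR74, AGBL5 and TRIM55.

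Genes of ribosomal proteins had 5' end peaks more often than the gene class as a whole. Of 40 cytoplasmic ribosomal protein genes of 5 kb or more, 25 (62.5%) had one in any replicate, against the 4.36% of the class, and all 40 had a peak somewhere. The 25 became 12 in the first 500 bp and 16 at 5 reads or more, and in genes of 10 kb or more 4 of 10 had one. Over the whole class the 728 genes became 564 in the first 500 bp and 236 at 5 reads or more. RPL11, RPL13, RPL23, RPL37A and RPS9 had one in all 3 replicates. RPL37A, of the large subunit, had 6, 5 and 3 in replicates 1, 2 and 3, and RPS9, of the small subunit, had 6, 3 and 5. The 4.36% of the class counts genes with no peak at all. Among genes of the class with a peak anywhere, 13.5% had a 5' end peak, against 62.5% of the ribosomal protein genes. Lists hold genes of unequal length and RNA level, and RNA levels were not used, so their shares are given as counts without a test.

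Genes of hnRNPs and splicing proteins were also above the class share. Among members with a peak anywhere, 45.5% of hnRNP, 46.2% of SR and SR-like and 36.4% of core spliceosome genes had a 5' end peak. The same share of the class was 13.5%. Of 24 hnRNP genes 10 (41.7%) had a 5' end peak, HNRNPA1 and HNRNPD in all 3 replicates. HNRNPAB had 4 in replicate 2 alone, HNRNPC 8 in replicate 3 alone and HNRNPH3 6 in replicate 1 alone. Of 13 SR and SR-like genes 6 (46.2%) had one, SRSF3 in all 3 replicates, and SRSF10 had 6 in replicate 2 alone and SRSF7 6 in replicate 1 alone. Of 28 genes of the core spliceosome 8 (28.6%) had one, and PRPF8, a protein at its catalytic centre, had 3, 5 and 5 in the 3 replicates. The 8 spliceosome genes became 4 in the 50% of each list with the lower p-values and 2 at 5 reads or more. The 728 genes of the class became 334 and 236 under these settings.

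Chaperone genes reached 13 of 26 (50.0%), but none in all 3 replicates. The chaperonin that folds actin and tubulin gave CCT2 with 6 in replicate 1, CCT3 with 4 in replicate 3, and CCT5 with 3 and 4 in replicates 2 and 3. The 13 became 8 in the 50% of each list with the lower p-values and 6 at 5 reads or more. Under these settings the 728 genes of the class became 334 and 236. Histone chaperones and chromatin factors had 12 of 34 (35.3%), with ANP32E, HDAC2, HMGN1 and RBBP4 in all 3 replicates. HDAC2, a histone deacetylase, had 3, 3 and 5, and HMGN1, a nucleosome-binding protein, had 3, 4 and 4. Translation factors had 7 of 46 (15.2%), led by EIF4G2, and nuclear-encoded respiratory chain genes 5 of 34 (14.7%), with ATP5F1B and ATP5MC3 in all 3. ATP5MC3 had 7, 3 and 3. The translation factors became 3 without replicate 2 and 11 in the first 2000 bp. The respiratory chain genes became 3 without replicate 3. They became 2 in genes of 10 kb or more, in the 50% with the lower p-values and at 5 reads or more. Among members with a peak anywhere, 54.2% of chaperone and 35.3% of chromatin genes had a 5' end peak. That share was 19.4% for translation factors and 22.7% for respiratory chain genes, against 13.5% of the class.

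Proteins that bind or unwind G-quadruplexes, four-stranded structures of guanine-rich nucleic acid, had 5' end peaks in 10 of 34 genes (29.4%). DDX5 and HNRNPA1 had them in all 3 replicates, and BRIP1, a DNA helicase, had 5 and 3 in replicates 2 and 3. The 10 became 6 in the first 500 bp, where the 728 genes of the class became 564. Among members of this list with a peak anywhere, 31.25% had a 5' end peak, against 13.5% of the class. Messenger RNAs described with G-quadruplexes in the 5' untranslated region had 1 of 21 (4.76%), next to the 4.36% of the class. That gene was NRAS, with 7 and 7 in replicates 1 and 2 and no 5' end peak in replicate 3, and in the first 500 bp none of the 21 had one. Only 8 of these 21 genes had a peak anywhere, and of those 12.5% had a 5' end peak, next to the 13.5% of the class.

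RNA polymerase II and elongation factors had 2 of 24 (8.33%), of which CDC73 had 3 and 4 in replicates 1 and 3. Proteasome genes had 4 of 29 (13.8%). At 5 reads or more both lists had 0, without replicate 2 they had 1 and 2, and without replicate 1 the proteasome list had 2. In the 50% of each list with the lower p-values each had 1. The 728 genes of the class became 334 there and 236 at 5 reads or more. Among members with a peak anywhere, 15.4% of the RNA polymerase II list and 18.2% of the proteasome list had a 5' end peak. The same share of the class was 13.5%. Cytoskeleton and glycolysis genes had 3 of 16 (18.8%), with TUBB in 2 replicates. Immediate early genes had 0 of 12, and 3 of the 12 had a peak anywhere.

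**Figure D5:**
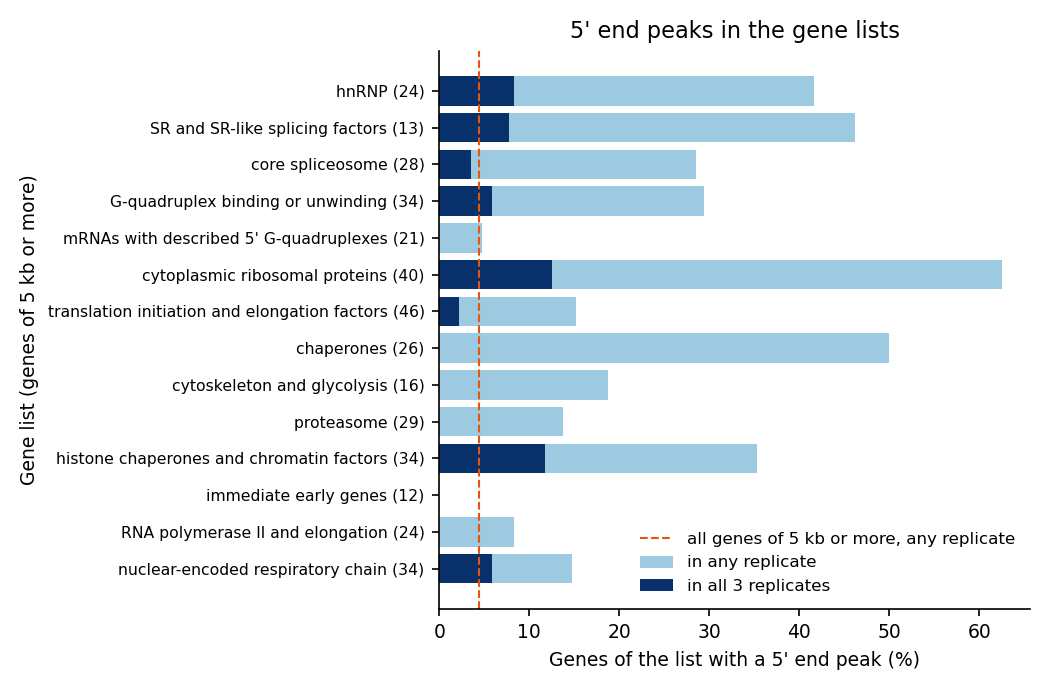
Percentage of the genes of 5 kb or more in each list (vertical axis, number of genes in brackets) that had a 5' end peak in any replicate (light bars) or in all 3 (dark bars). The dashed line is the 4.36% of all genes of the class, with or without any peak, that had one in any replicate. Among genes of the class with a peak anywhere the share was 13.5%, which is not drawn. Ribosomal protein genes reach 62.5% and immediate early genes 0.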

How the data were processed

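RNA crosslinked to HA-HNRNPA0 was measured by easyCLIP in 3 HEK293T samples. The authors deposited 1 peak list per sample, called per sample, with a p-value per peak, a peak name ending in a number used here as the read number, and the bounds of a stretch of up to 4 nt inside the peak. Coordinates are hg38, per the submitters' processing notes, which also name bedtools and deepTools; the aligner and peak caller are not given in the sources used here. The lists hold no letters, so the planned base content could not be read from them.

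Gene IDs were tied to the RefSeq protein-coding gene (GRCh38.p14) that held 90% or more of their peak centres on a compatible strand: 5983 of 6566 IDs had 1 such gene and 65 had several. Readthrough genes were left out. Strand came from RefSeq's start table, or from the ID for genes it does not list. Peaks overlapping by 1 bp or more on 1 strand formed regions, whose read number in a replicate is that of the highest peak. The lists differed little in depth, with 99141 to 114203 summed read numbers on these chromosomes. Peak sets were compared by two-sided exact permutation over the 3 replicates (Python 3.11.15, numpy 2.4.6, pandas 2.3.3). Placement and recurrence were tested on simulated data with 200 genes, all recovered. These genes had no near neighbour, and a gene's peak had the same bounds in each replicate that held it. Overlapping genes and partly overlapping peaks were therefore not tried.

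The genes named were the 25 with the strongest regions of all 3 replicates, the 5 strongest regions of fewer, genes with 3 or more regions found in 2 or more replicates, list members, and the regions nearest to and farthest from the start or the limit. List members were those with peaks in all 3 replicates and up to 3 others, the first in alphabetical order. NRAS was named as the sole gene of its list. The genes over small RNA genes, those with letters shown, and CDKN2AIPNL were named after their values were seen where no part of the rule gave them. The members of the set and the 14 gene lists were chosen with earlier results of these data known.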

Additional observations from a re-analysis of the deposited data

How the results depend on the processing

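No paired analysis was possible because the samples formed 1 group, so no second group shared their replicate numbers; the exact tests compared sets of peaks within each replicate. The number of peaks per replicate was 375 and became 604 in the first 2000 bp, 177 in the 50% of each list with the lower p-values and 132 at a read number of 5 or more. The share of peaks at the 5' end became 1.77% in 500 bp, 4.07% in 2000 bp and 2.19% in genes of 10 kb or more. The median distance became 166, 682 and 245 bp under these same 3 settings. The number of regions of all replicates became 25 in 500 bp, 82 in 2000 bp, 27 in genes of 10 kb or more, 28 at 50% overlap of both peaks, 24 in the stricter 50% and 21 at a read number of 5 or more. The share of peaks in such regions was 14.2% and became 10.8%, 16.04%, 10.1%, 8.02%, 17.8% and 21.9% under these 6 settings, 12.2% with each gene counted once and 10.3% without peaks over small RNA genes, a setting chosen after seeing the data. Leaving out 1 replicate, so that both remaining ones had to hold a peak, gave 77 to 86 regions and 22.4% to 26.2% of peaks. The recurrence difference, -1.08 points, became -4.46 in 500 bp, -4.38 in genes of 10 kb or more, -4.80 in the stricter 50%, -5.20 at a read number of 5 or more and -4.63 without peaks over small RNA genes. It became 0.859 points in 2000 bp and 0.916 with each gene counted once, and ranged from -3.37 to 1.72 without 1 replicate. The difference in read numbers of 5 or more became 1.67 points in the stricter 50% and 5.91 with each gene counted once, and ranged from -3.49 to 0.787. The cause of these turns in sign was not tested. Genes with a 5' end peak fell to 334 in the stricter 50% and 236 at a read number of 5 or more. List members with one went from 104 to 68 in genes of 10 kb or more and 61 at a read number of 5 or more. Of 454 values of single genes and lists under these settings, 392 stayed within the spread of the replicates or, for lists, within 1.5 times, and 62 moved. Part of this tally was fixed by the settings, so it is no measure of stability. A gene's highest read number does not depend on the overlap rule. Peaks beyond 500 bp must drop out in the first 500 bp, and genes under 10 kb at 10 kb or more. Most peaks hold few reads, and peaks of few reads recurred least; whether the calling limit sets this was not tested.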
